A study of Homo sapiens with 40 samples.

Results

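EGF-treated invasive FaDu cells were compared with serum-free FaDu spheroids in 8 of the 40 samples of a study of local invasion in squamous carcinoma. FaDu is an established cell line from a human hypopharyngeal tumour, used here without an engineered mutation and with Dendra2, which fluoresces green and turns red under light. The members of the comparison are the 4 libraries of each of these groups, taken from the sample titles. The invasive group came from spheroids kept in type I collagen (1.7 mg/mL) for 72 h with 9 nM epidermal growth factor (EGF), in which 10 to 12 invasive areas per spheroid were photoconverted and the cells then sorted. The serum-free group came from spheroids in the same collagen for the same time without EGF, labelled as unselected. For each treatment 40 spheroids were used and more than 1000 cells per group were sorted, and no label says that replicates were separate cultures, so p-values measure only how far these libraries scatter, and that scatter may be technical. EGF, position in the collagen and selection all changed together between the groups and cannot be told apart in this comparison. Another group of 4 libraries, titled as non-invasive cells of EGF-treated spheroids, shares the EGF and the photoconversion protocol, and its values are set beside the others where position is in question. A label on cell selection gives photoconverted invasive cells for that other group too, so its name rests on the titles.

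As background, EGF binds its receptor EGFR and switches on the kinases RAF, MEK and ERK, which raise AP-1 and ETS transcription factors, growth genes and a set of feedback inhibitors. Squamous carcinoma cells that invade collagen attach through integrins, secrete basement membrane laminin and proteases, and often keep epithelial keratins while they gain part of a mesenchymal programme. Cells of stratified mucosa that stop dividing instead make differentiation keratins such as KRT4 and KRT13.

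Libraries of the invasive group held 3154470 to 4631178 counts and those of the serum-free group 2312126 to 4112207. Invasive libraries had counts in 11963 ± 247 genes and serum-free libraries in 12399 ± 49.8 (SD, n = 4 each; two-sided exact permutation test, p = 0.0286, the smallest that 4 against 4 allows). Mitochondrially encoded RNA took 11.4% ± 0.743 of counts in invasive libraries and 15.3% ± 0.644 in serum-free libraries (exact permutation test, p = 0.0286). With all FaDu libraries thinned to the smallest total, counts remained in 11830 ± 190 genes of invasive and 12352.5 ± 20.4 of serum-free libraries. In the comparison below 6452 of 11449 genes differed after thinning, and 6967 of 12112 without mitochondrially encoded genes. Any other part of these differences in the results below was not tested. Invasive replicate 2 stood apart, with counts in 11631 genes, and without it 6839 genes differed in the comparison below, against 6950 with it. The squamous label was checked on 11 markers, all of which were counted, with a summed level of 5121 to 6058 CPM of total counts in invasive libraries and 4874 to 5378 in serum-free libraries. Of these markers 4 were higher and 6 lower in invasive cells, with a median log2 fold change of -1.24, and KRT17 (31779 counts) and SFN (43802 counts) made up most of the invasive sum. Single markers were near 0 in a group, with KRT14 at 227 counts in the 4 invasive and 4 in the 4 serum-free libraries, and SOX2 at 48 counts in the invasive and 1169 in the serum-free libraries. Of fibroblast, endothelial and leukocyte markers, 1 each was counted, namely COL1A1 (75 counts in the 4 invasive and 291 in the 4 serum-free libraries), CDH5 (0 in the invasive and 49 in the serum-free libraries) and CD68 (82 in the invasive and 16 in the serum-free libraries), and the other markers of those lists were not analysed here. In bulk RNA, fewer cells of a type and less RNA per cell cannot be told apart.

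Of 12131 genes tested, 6950 (57.3%) differed at an adjusted p under 0.05, which is the meaning of "called", "rose" and "fell" below. Among them 3371 genes (27.8% of those tested) were higher in invasive cells and 3579 (29.5%) were lower. Changes of over 16-fold were called for 96 genes that rose and 314 that fell. In 3096 genes (25.5%) every invasive library lay above every serum-free library, and in 3398 (28%) every one lay below. Since most genes differed, a count of list members is read against these shares. Levels are in CPM, each gene's share of its library's counts after TMM scaling, which count the 3′ end of a transcript and do not scale with its length, and fold changes are log2 values, invasive over serum-free, with their standard error (SE). Named genes were taken by a rule on list membership and size of change, and a gene named after its value was seen is marked as such.

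**Figure D1:**
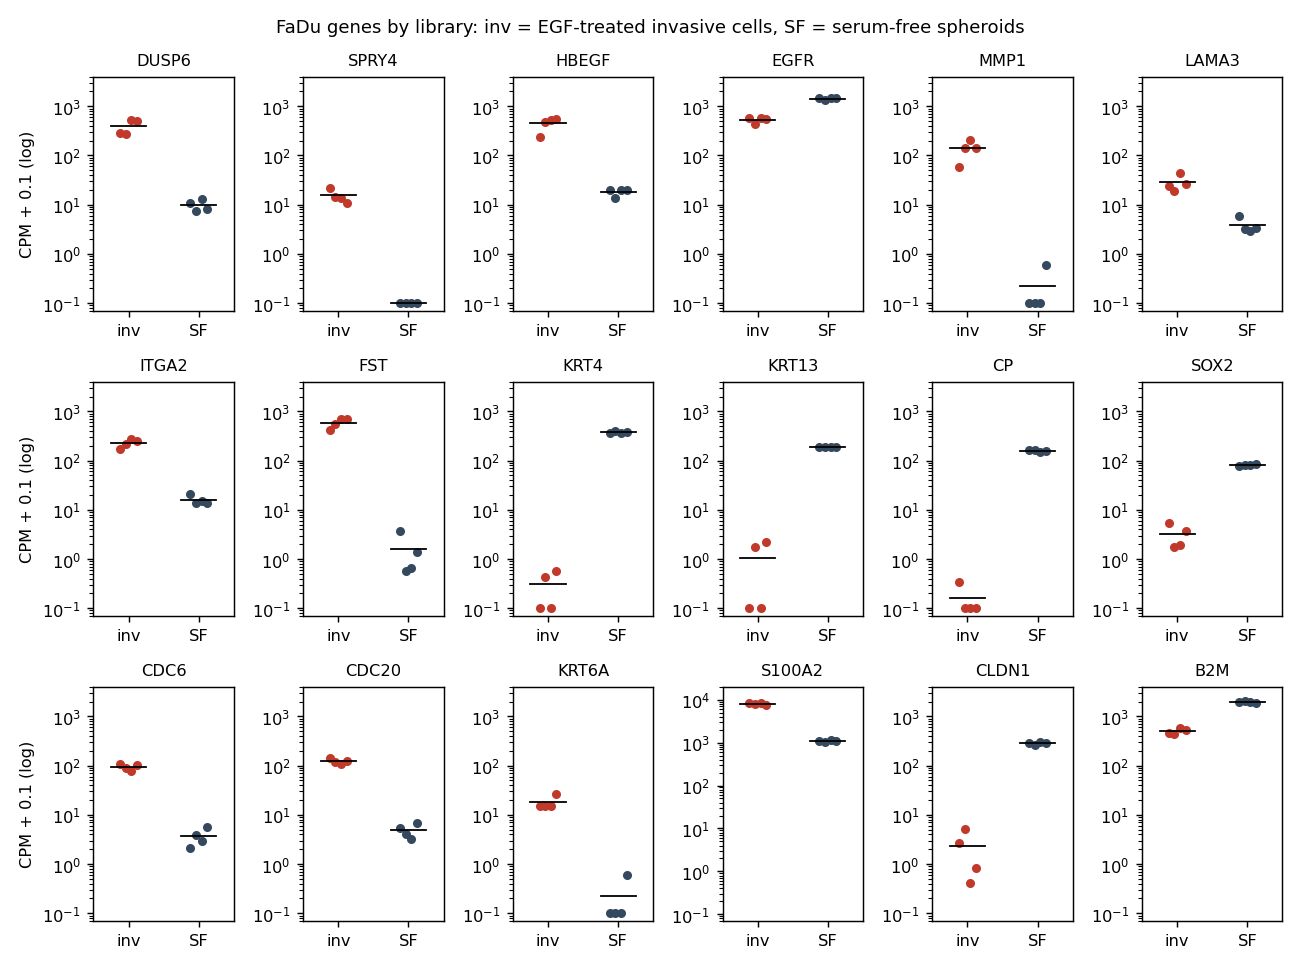
CPM plus 0.1 of 18 genes on a log axis, with 1 point per library, the 4 EGF-treated invasive (inv) libraries left of the 4 serum-free (SF) libraries and a bar at each group mean. For each of these genes the groups did not overlap. SPRY4 was at 0 in every serum-free library.

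Genes switched on by ERK were mostly higher in invasive cells. Of 22 ERK output and feedback genes, 17 rose and 2 fell, with a median log2 fold change of 2.57 against -0.04 over all genes tested. DUSP6, a phosphatase that acts on ERK, had 287, 279, 532 and 494 CPM in the 4 invasive libraries and 10.6, 7.51, 12.8 and 8.07 CPM in the 4 serum-free libraries. The lowest invasive library was thus far above the highest serum-free one, with a log2 fold change of 5.37 ± 0.33 (adjusted p = 6.18e-11). SPRY4, a Sprouty inhibitor of receptor signalling, had 22.3, 14.5, 13.7 and 10.8 CPM in invasive libraries and 0 in each serum-free library, at least 73.3-fold higher with the serum-free group set to a floor of 3 counts in all. ETV4 and ETV5, ETS factors that act below ERK, averaged 27.6 ± 3.55 and 26.7 ± 1.76 CPM in invasive cells and 0.676 ± 0.687 and 2.05 ± 0.94 CPM in serum-free cells (SD, n = 4). PHLDA1 rose by 3.85 ± 0.23, PHLDA2 by 2.86 ± 0.15 and IER3 by 2.58 ± 0.28 on the log2 scale. The exceptions were SPRY1 (-2.77) and EPHA4 (-3.31), which fell, and DUSP5, EGR1 and MYC, which were not called, all named after their values were seen.

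EGF receptors fell while most of their ligands rose. EGFR had 570.4, 428, 586 and 550.2 CPM in invasive libraries and 1445, 1328, 1457 and 1477 CPM in serum-free libraries, without overlap (-1.42 ± 0.13, adjusted p = 7.53e-10). The related receptors ERBB2 (-1.55 ± 0.13) and ERBB3 (-2.77 ± 0.22) fell too. Of the ligands, HBEGF reached 234, 487, 529.5 and 548 CPM in invasive libraries, against 20.02, 13.4, 20.1 and 19.4 CPM in serum-free libraries. Invasive replicate 1 was the lowest of its group for HBEGF and still more than 10-fold above the serum-free values. TGFA rose by 3.03 ± 0.21, AREG by 2.84 ± 0.54 and EREG by 3.13 ± 0.58 on the log2 scale. NRG1, the neuregulin ligand of ERBB3, averaged 56.4 ± 18.9 CPM in invasive cells and 7.01 ± 0.364 CPM in serum-free cells. The ligand BTC fell (-1.34). Among all 13 receptor, ligand and feedback genes tested, 7 rose and 5 fell, and ADAM17, the protease that releases several of these ligands, was not called (-0.26). BTC and ADAM17 were named after their values were seen.

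AP-1 subunits did not move together. FOSL1, the subunit FRA-1, had 176, 167, 204 and 201 CPM in invasive libraries and 11, 5.4, 12.2 and 8.82 CPM in serum-free libraries (4.34 ± 0.52, adjusted p = 2.02e-06). FOSL2, its close relative, went the other way, with 10.3, 7.74, 21.1 and 17.9 CPM in invasive libraries and 118, 119, 94.2 and 118 CPM in serum-free libraries. JUN averaged 595 ± 134 CPM in invasive cells and 1189 ± 32.7 CPM in serum-free cells, and the immediate early factor EGR2 averaged 0.688 ± 0.654 CPM in invasive cells and 26.1 ± 4.16 CPM in serum-free cells. In the list of 18 AP-1 and immediate early factors 3 rose and 8 fell. KLF6, a zinc finger factor, was among those that rose (2.60 ± 0.38). A list of 13 genes known to respond to cell dissociation, which shares members with that list, had 1 higher and 6 lower in invasive cells.

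Promoter sequence was read for the genes that moved most, because AP-1 and ETS factors are known to act below ERK. The RefSeq promoter table (GRCh38.p14) held the 250 bases before and 50 after the start of 9465 of the 12131 genes. The AP-1 motif TGACTCA, searched on both strands, was present in 12.9% of the 70 promoters of genes that rose over 16-fold, in 3.93% of the 229 promoters of genes that fell over 16-fold and in 2.95% of all 9465. The AP-1 share was 5.67% of 388 promoters of genes that rose over 4-fold. Among all 2681 promoters of genes that rose it was 3.39%, near the share of all genes. The ETS motif CCGGAAG, also on both strands, was present in 17.1% of promoters of genes that rose over 16-fold, in 3.06% of those of genes that fell over 16-fold and in 20.5% of all. Its share was 14.7% for genes that rose over 4-fold, 24.4% for all genes that rose and 14.4% for all that fell. Among the genes that rose with an AP-1 match were the laminin chain LAMA3, the calcium-binding protein S100A2, the ion channel TRPV3 and the urokinase receptor PLAUR. Of these only TRPV3 rose over 16-fold. Named genes that fell held AP-1 matches too, among them VTCN1, FOSL2, BBC3 and ENO2. LAMA3, S100A2, TRPV3 and PLAUR are each shown over 100 bases, 5′ to 3′ on the strand of the gene, with the AP-1 match in capitals. The windows lie at chr18:23872880-23872979, plus strand (LAMA3), at chr1:153565845-153565944, minus strand (S100A2), at chr17:3557863-3557962, minus strand (TRPV3) and at chr19:43670300-43670399, minus strand (PLAUR). A match is a description of letters and not a site shown to be bound.
LAMA3: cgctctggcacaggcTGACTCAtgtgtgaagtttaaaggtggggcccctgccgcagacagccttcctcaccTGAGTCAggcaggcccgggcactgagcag
S100A2: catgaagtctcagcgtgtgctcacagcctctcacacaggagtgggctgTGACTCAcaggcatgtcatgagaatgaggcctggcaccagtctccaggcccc
TRPV3: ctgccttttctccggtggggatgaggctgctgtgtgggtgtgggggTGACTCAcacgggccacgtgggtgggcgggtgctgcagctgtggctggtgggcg
PLAUR: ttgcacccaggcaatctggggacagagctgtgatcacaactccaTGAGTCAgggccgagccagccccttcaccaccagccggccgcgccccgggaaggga

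**Figure D2:**
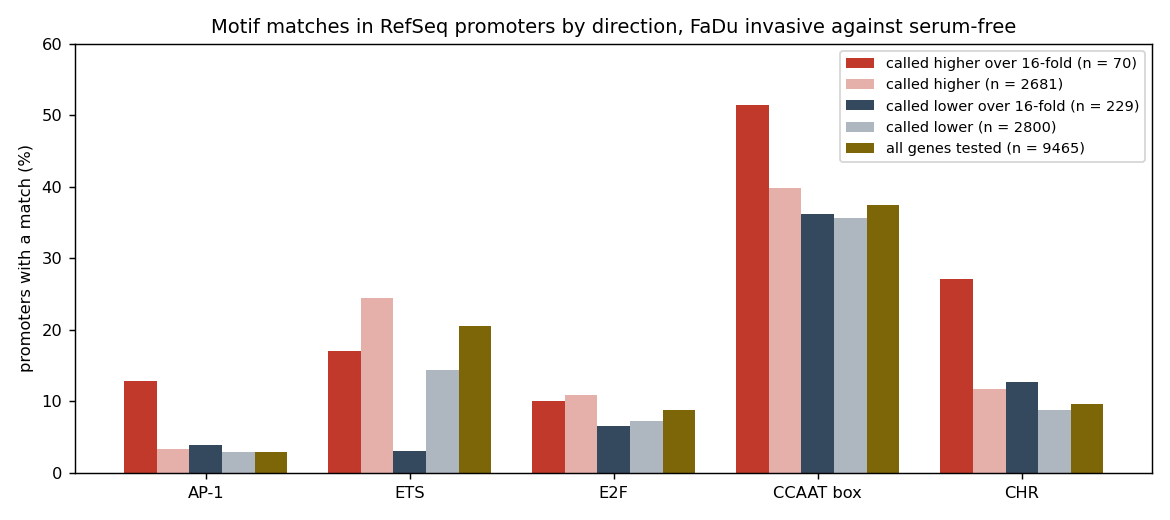
Share of RefSeq promoters (%) with a match to each of 5 motifs, in genes that rose or fell in invasive FaDu cells against serum-free cells and in all genes tested. AP-1 matches stood at 12.9% in genes that rose over 16-fold, 3.39% in all genes that rose and 2.95% in all genes. ETS matches stood at 17.1% in genes that rose over 16-fold, 24.4% in all genes that rose, 3.06% in those that fell over 16-fold and 20.5% in all genes.

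All 4 of these genes were strongly higher in invasive cells. LAMA3 had 23.7, 19.2, 43.7 and 26.6 CPM in invasive libraries and 5.72, 3.05, 2.84 and 3.28 CPM in serum-free libraries. TRPV3, a heat-sensitive calcium channel of keratinocytes, had 22, 78.8, 81.6 and 39.9 CPM in invasive libraries and 0, 0.235, 0 and 0 CPM in serum-free libraries, where replicates 1, 3 and 4 had none. PLAUR had 45.5, 43.4, 83.7 and 78.2 CPM in invasive libraries and 4.9, 5.4, 4.26 and 3.28 CPM in serum-free libraries. In each of the 3 the groups were apart, and the spread within the invasive group was widest for TRPV3. S100A2 was abundant in both groups, at 8121 ± 518 CPM in invasive cells and 1104 ± 56 CPM in serum-free cells (2.88 ± 0.15, adjusted p = 2.03e-14).

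Proteases and their inhibitors changed in both directions. MMP1, a collagenase that cuts type I collagen, had 58.2, 145, 208 and 144 CPM in invasive libraries and 0, 0, 0 and 0.504 CPM in serum-free libraries. Only 1 serum-free library held counts of it, and the log2 fold change was 9.66 ± 0.87 (adjusted p = 4.83e-08). MMP10 averaged 18.6 ± 13.6 CPM in invasive cells and 2.34 ± 2.08 CPM in serum-free cells. SERPINE2 and SERPINB2, inhibitors of plasminogen activators, rose by 4.28 ± 0.30 and 7.79 ± 0.87 on the log2 scale. TIMP1, an inhibitor of matrix metalloproteinases, rose (3.11 ± 0.18), whereas its relative TIMP3 fell (-5.17 ± 0.46). PLAT, tissue plasminogen activator, fell (-3.58 ± 0.31). PLAU, urokinase itself, was not called, with 49.6, 31.3, 418 and 121 CPM in invasive libraries and 84.6, 55.6, 94.8 and 40.1 CPM in serum-free libraries. Its log2 fold change was 1.18 ± 0.80 (adjusted p = 0.227), and -0.011 without invasive replicate 3. Over 19 protease and inhibitor genes 8 rose and 6 fell.

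Attachment and motility genes were mostly higher in invasive cells. Of 18 epithelial laminin, integrin and hemidesmosome genes 14 rose and 2 fell (median log2 fold change 1.53), and of 33 actin and motility genes 27 rose and 4 fell (1.16). LAMB3, a chain of epithelial basement membrane laminin, rose (1.17 ± 0.17), as did LAMA3 above. ITGA2, the alpha subunit of a collagen receptor, had 172, 219, 270.4 and 248 CPM in invasive libraries and 21.2, 13.8, 15 and 13.4 CPM in serum-free libraries (3.86 ± 0.23). Its partner ITGB1 rose by 2.10 ± 0.13, and the laminin-binding ITGA6 and ITGB4 by 2.23 ± 0.14 and 1.40 ± 0.16, on the log2 scale. FSCN1, which bundles actin in protrusions, averaged 364 ± 50.6 CPM in invasive cells and 46.7 ± 2.73 CPM in serum-free cells. DIAPH3, an actin-nucleating formin, averaged 109 ± 31 CPM in invasive cells and 9.1 ± 2.68 CPM in serum-free cells. The members that fell were DST and ITGAV in the first list and RDX, TPM1, MYL9 and CAPG in the second, named after their values were seen.

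Mesenchymal genes rose in part. In a list of 22 partial epithelial-mesenchymal transition (EMT) genes, known from other head and neck tumours, 13 rose and 3 fell, and it shares ITGB1, MMP1 and others with the lists above. Its members PDPN (-2.45 ± 0.29) and TGFBI (-4.96 ± 0.69) fell. INHBA, the subunit of activin A, had 28.7, 96.3, 119 and 103 CPM in invasive libraries and 1.23, 0.704, 0.851 and 0 CPM in serum-free libraries. FST, the activin-binding follistatin, had 420.1, 554, 690.2 and 705 CPM in invasive libraries and 3.68, 0.469, 0.567 and 1.26 CPM in serum-free libraries (8.81 ± 0.67, adjusted p = 1.19e-08). The other activin subunit gene INHBB went the opposite way, at 0 in all 4 invasive libraries and 8.58, 10.6, 9.65 and 9.33 CPM in serum-free libraries, at least 47-fold lower. Of 8 EMT transcription factors and mesenchymal genes tested, 3 rose and 1 fell. TWIST2 averaged 21.1 ± 3.14 CPM in invasive cells and 5.57 ± 1.98 CPM in serum-free cells. CDH2, N-cadherin, rose by 1.17 ± 0.38 and FN1, fibronectin, by 2.60 ± 0.96 on the log2 scale (adjusted p = 0.0222). For both genes the libraries of the groups overlapped. CDH2 averaged 15.7 ± 6.48 CPM in invasive cells and 6.96 ± 2.22 CPM in serum-free cells. FN1 was near 0, with 40 counts in the 4 invasive and 6 in the 4 serum-free libraries. The call of FN1 was lost without invasive replicate 3 (2.12, adjusted p = 0.0792) and without serum-free replicate 1, 2 or 4. S100A4, a calcium-binding protein of motile cells, fell (-3.90 ± 0.32). VIM, vimentin, was at 0 in every invasive library. Of 20 TGF-beta and activin response genes 6 rose and 6 fell, and of 19 collagen and matrix genes 9 rose and 8 fell. Within them TGFB1 rose (2.93 ± 0.32) and COL6A1, FBLN1 and LAMA5 fell (-3.31 ± 0.31, -3.05 ± 0.20 and -2.15 ± 0.20).

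Junction genes split. E-cadherin, CDH1, had 62.2, 76.8, 105 and 82.3 CPM in invasive libraries and 193, 176, 219.6 and 189.8 CPM in serum-free libraries (-1.26 ± 0.26, adjusted p = 0.000388). P-cadherin, CDH3, averaged 167 ± 22.4 CPM in invasive cells and 149 ± 9.61 CPM in serum-free cells and was not called (0.16 ± 0.13). The largest fall was that of the tight junction protein CLDN1, with 2.63, 5.05, 0.306 and 0.718 CPM in invasive libraries and 293, 264, 296 and 288 CPM in serum-free libraries. The desmosomal cadherins DSC2 and DSC3 fell (-1.25 ± 0.15 and -2.10 ± 0.17), while the desmosomal plaque protein PKP2 rose (2.15 ± 0.18) and EPCAM rose (0.54 ± 0.12). Of 22 junction genes 7 rose and 9 fell.

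Mucosal differentiation genes mostly fell in invasive cells. Of 16 mucosal keratin and differentiation genes tested, from a list of 38, 11 fell and 1 rose (median log2 fold change -2.87). KRT4, a keratin of differentiated oesophageal and oral mucosa, had 0, 0.337, 0 and 0.478 CPM in invasive libraries and 359, 401, 364 and 376 CPM in serum-free libraries. Its partner KRT13 had 0, 1.68, 0 and 2.15 CPM in invasive libraries and 192, 185, 192 and 189 CPM in serum-free libraries. Both were thus nearly lost from invasive libraries (-10.63 ± 0.75 and -7.58 ± 0.68). KRT15 averaged 50.4 ± 24 CPM in invasive cells and 903 ± 26.9 CPM in serum-free cells, and the epithelial factor ELF3 averaged 32.4 ± 3.74 CPM in invasive cells and 613 ± 23.5 CPM in serum-free cells. The gene that rose in this list was KLK6 (1.27), named after its value was seen.

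Other keratins changed in both directions. KRT5, the basal keratin, fell to 56.8 ± 12.6 CPM in invasive cells, against 762 ± 86.2 CPM in serum-free cells. KRT6A, a keratin of wounded epithelium, had 15.1, 15.1, 15.3 and 26.8 CPM in invasive libraries and 0, 0, 0 and 0.504 CPM in serum-free libraries. Reads of KRT6A may be shared with near-identical relatives and its value is uncertain. KRT18 rose (2.05 ± 0.17) and KRT19 fell (-1.98 ± 0.18), and KRT17 averaged 2204 ± 332.1 CPM in invasive cells and 2005 ± 46.1 CPM in serum-free cells without being called. Among 10 stress, basal and simple keratins 4 rose and 3 fell.

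Lineage factors of squamous epithelium were mostly lower in invasive cells, with 13 of 21 lower and 3 higher. SOX2, often amplified in squamous tumours, had 5.27, 1.68, 1.83 and 3.59 CPM in invasive libraries and 78.8, 82.3, 82.6 and 84.2 CPM in serum-free libraries (-4.66 ± 0.33, adjusted p = 4.07e-12). The Notch receptors NOTCH1 and NOTCH3, which promote squamous differentiation, fell (-3.14 ± 0.22 and -3.27 ± 0.22). SOX9, a progenitor factor, had 211, 201, 191 and 166 CPM in invasive libraries and 15.1, 12, 15.6 and 14.6 CPM in serum-free libraries. The other members that rose were OVOL1 and SOX15, named after their values were seen.

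Secretory and defence genes fell. All 14 tested members of a list of secretory, mucin and acute-phase genes were lower in invasive cells (median log2 fold change -6.55, or -5.99 with the 3 members at 0 in invasive libraries set to their bound). The list had 26 members, and those not tested were not analysed here. CP, the copper protein ceruloplasmin, had 0.239, 0, 0 and 0 CPM in invasive libraries and 166, 161, 149 and 158 CPM in serum-free libraries. LCN2, the iron-binding lipocalin, had 0, 0.337, 0.306 and 0.239 CPM in invasive libraries and 78.4, 79.8, 81.1 and 74.9 CPM in serum-free libraries. MUC1, a membrane mucin, averaged 1.02 ± 1.2 CPM in invasive cells and 101 ± 5.04 CPM in serum-free cells. SLPI, a secreted protease inhibitor, and CLU, clusterin, fell too (-4.68 ± 0.30 and -3.16 ± 0.19). VTCN1, an immune checkpoint ligand, was at 0 in invasive libraries and 22.9, 24.9, 22.4 and 30.0 CPM in serum-free libraries, at least 123-fold lower. Of 8 ion and water transport genes 5 fell and 2 rose, among them the proton pump subunit ATP6V1B1 (0.0598 ± 0.12 CPM in invasive and 54.1 ± 6.33 CPM in serum-free cells) and the sodium channel subunit SCNN1A (-4.53 ± 0.34), which fell, and the potassium channel KCNK1 (1.77 ± 0.22), which rose.

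The remaining extremes came from varied functions. IGFN1, ESM1 and IL24 were at 0 in serum-free libraries and averaged 36.8 ± 22, 22.9 ± 2.89 and 15.8 ± 7.92 CPM in invasive cells, at least 161-fold, 107-fold and 71-fold higher. IL1RL1, the receptor of interleukin 33, had 101, 170.3, 156 and 114 CPM in invasive libraries and 0.409, 0, 0.851 and 0 CPM in serum-free libraries. CALB2, the calcium-binding protein calretinin, and NAV3, a microtubule-binding protein, averaged 113 ± 33.4 and 126 ± 19.3 CPM in invasive cells and 0.334 ± 0.363 and 0.834 ± 0.586 CPM in serum-free cells. On the other side BCAS1, SELENOP, NUPR1, PAPSS2, CLDN16, C1R, PCDH18, CLIC3 and MPPED2 were at 0 in all invasive libraries, with means of 10.5 to 23.8 CPM in serum-free cells. SELENOP carries selenium in plasma and was at least 95.6-fold lower, and NUPR1, a stress-induced nuclear protein, at least 92.5-fold lower. TNNT3, a fast muscle troponin, averaged 0.689 ± 0.477 CPM in invasive cells and 244 ± 11.6 CPM in serum-free cells. Over all genes tested, 62 had no count in the invasive group and 10 had none in the serum-free group.

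**Figure D3:**
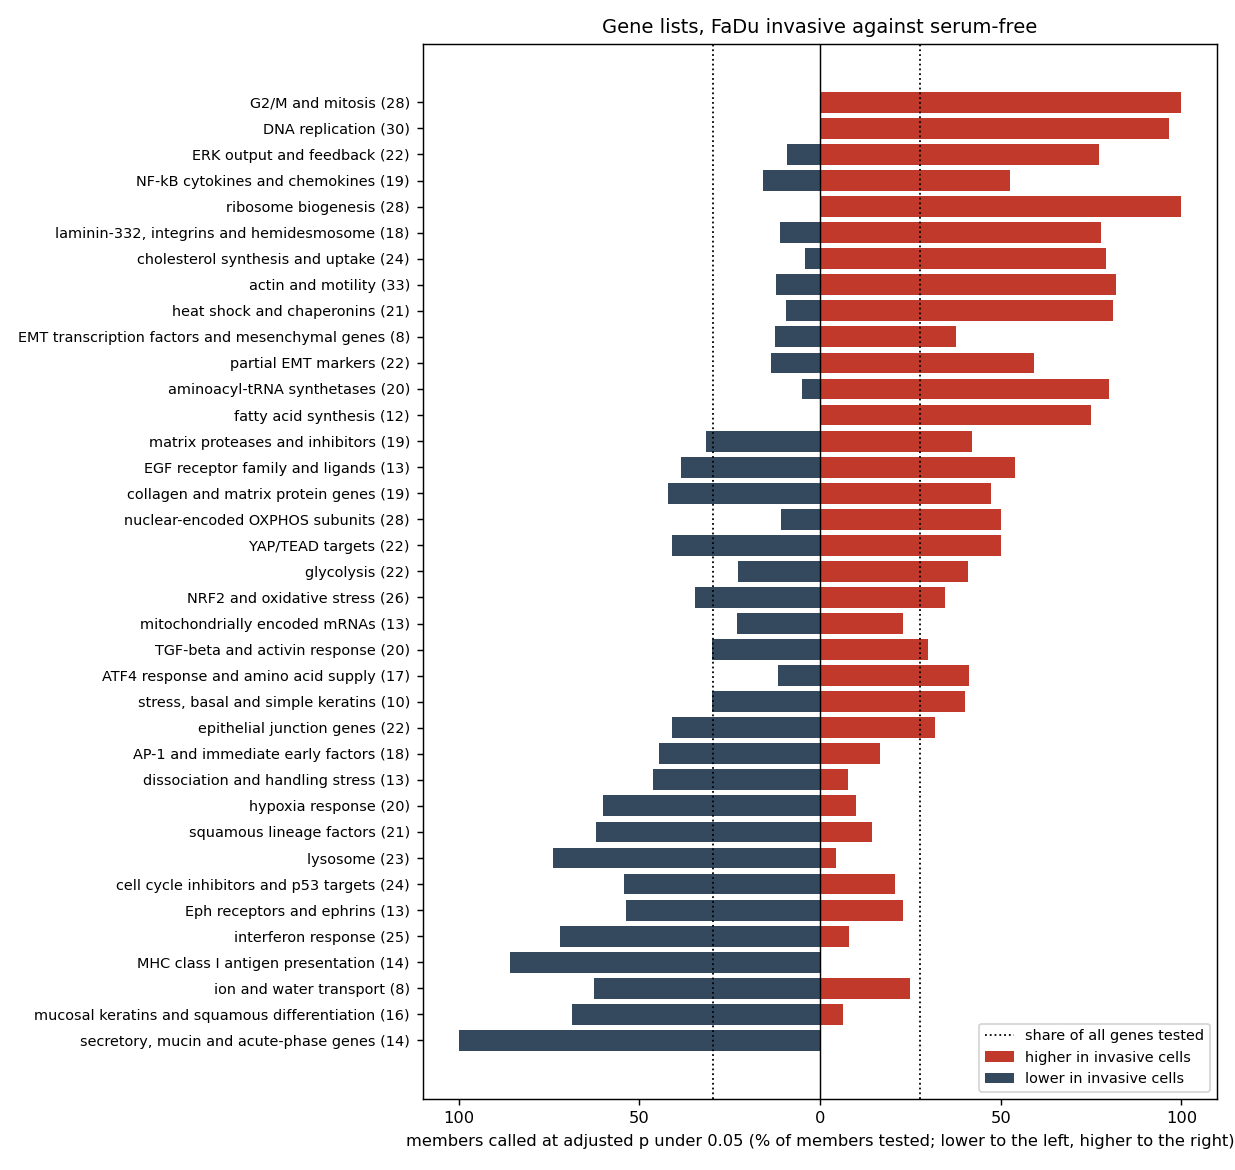
Share of each list's tested members (%, number tested in brackets) that were called higher (right) or lower (left) in invasive FaDu cells against serum-free cells, ordered by median log2 fold change. Dotted lines mark the shares over all genes tested, 27.8% higher and 29.5% lower. Cell cycle and ribosome biogenesis lists lie at the higher end and secretory genes at the lower.

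Cell division genes rose almost without exception. Of 30 DNA replication genes 29 rose and 0 fell (median log2 fold change 2.67), and all 28 G2/M and mitosis genes rose (3.46). CDC6, which loads the replicative helicase, had 109, 88.2, 79.1 and 105 CPM in invasive libraries and 2.04, 3.75, 2.84 and 5.55 CPM in serum-free libraries (4.68 ± 0.25, adjusted p = 1.91e-14). RRM2, a subunit of ribonucleotide reductase, averaged 75.4 ± 10.7 CPM in invasive cells and 3.2 ± 1.83 CPM in serum-free cells. MKI67, the proliferation marker Ki-67, had 513, 543, 404 and 659 CPM in invasive libraries and 30.6, 25.6, 23.8 and 28.5 CPM in serum-free libraries. CDC20, an activator of the anaphase-promoting complex, had 146, 119.5, 106 and 124 CPM in invasive libraries and 5.31, 3.99, 3.12 and 6.81 CPM in serum-free libraries. Every serum-free library was therefore more than 10-fold below every invasive library for CDC6, MKI67 and CDC20.

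Promoter elements were read for these lists as well. The shares describe which genes were put in a list and are not a test of their rise. The cell cycle element CHR (TTTGAA on either strand) was present in 16 of 23 promoters of the G2/M list (69.6%) and in 9.58% of all 9465. The E2F motif, TTGGCGC or TTCGCGC on either strand, was present in 11 of 26 promoters of the replication list (42.3%) and in 8.87% of all. Among promoters of all genes that rose, 11.8% held CHR and 10.9% held E2F. For genes that rose over 16-fold the shares were 27.1% for CHR and 10.0% for E2F. The CCAAT box was present in 82.6% of G2/M promoters, against 37.5% of all. One E2F example from CDC6 (chr17:40287819-40287918, plus strand) and 3 CHR examples from KIF23 (chr15:69414249-69414348, plus strand), CDC20 (chr1:43358881-43358980, plus strand) and ANLN (chr7:36389782-36389881, plus strand) follow, 5′ to 3′ on the strand of the gene, with the motif in capitals. CDC20 and KIF23 are mitotic genes, and ANLN is an actin-binding protein of the cleavage furrow.
CDC6: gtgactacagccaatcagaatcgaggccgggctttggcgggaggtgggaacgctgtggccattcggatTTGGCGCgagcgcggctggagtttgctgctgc
KIF23: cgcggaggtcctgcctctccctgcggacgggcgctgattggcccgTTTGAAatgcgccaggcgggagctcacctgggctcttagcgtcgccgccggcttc
CDC20: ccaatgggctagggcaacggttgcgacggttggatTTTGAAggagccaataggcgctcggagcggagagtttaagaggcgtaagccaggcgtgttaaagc
ANLN: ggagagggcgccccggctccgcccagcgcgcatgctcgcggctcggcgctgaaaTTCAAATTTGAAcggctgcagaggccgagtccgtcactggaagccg

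KIF23, a kinesin of cytokinesis, averaged 93.3 ± 15.2 CPM in invasive cells and 5.54 ± 1.27 CPM in serum-free cells, and ANLN averaged 153 ± 39.4 CPM in invasive cells and 10.5 ± 1.87 CPM in serum-free cells. Cell cycle inhibitors and p53 target genes went mostly down, with 13 of 24 lower and 5 higher. The inhibitors CDKN1B (p27) and CDKN1C (p57) fell (-2.08 ± 0.28 and -2.72 ± 0.29). CDKN1A (p21) rose (3.25), as did SFN, the 14-3-3 sigma protein, at 2997 ± 305 CPM in invasive cells and 499 ± 34.8 CPM in serum-free cells. The stress cytokine GDF15 averaged 13.4 ± 0.641 CPM in invasive cells and 244 ± 17.6 CPM in serum-free cells. CDKN1A was named after its value was seen.

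Most biosynthetic genes rose too. All 28 ribosome biogenesis genes rose (median log2 fold change 1.55), and 16 of 20 aminoacyl-tRNA synthetases rose with 1 lower, AARS1, named after its value was seen. NOLC1, a nucleolar chaperone, had 284, 297, 251 and 284 CPM in invasive libraries and 48.6, 69, 59.3 and 58 CPM in serum-free libraries. VARS1, which charges valine tRNA, averaged 84.6 ± 12.5 CPM in invasive cells and 22 ± 6 CPM in serum-free cells. Of 21 heat shock and chaperonin genes 17 rose and 2 fell. HSP90AB1 averaged 9217 ± 1235 CPM in invasive cells and 3259 ± 249.5 CPM in serum-free cells, and the chaperonin subunit CCT5 averaged 1457 ± 121 CPM in invasive cells and 374 ± 21.4 CPM in serum-free cells. The small heat shock gene HSPB1 was the clear exception, with 185, 178, 159 and 150.5 CPM in invasive libraries and 1253, 1326, 1346 and 1319 CPM in serum-free libraries (-2.96 ± 0.13, adjusted p = 1.55e-15).

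Most lipid synthesis genes rose as well. Of 24 cholesterol synthesis and uptake genes 19 rose and 1 fell, and of 12 fatty acid synthesis genes 9 rose and 0 fell. HMGCS1 and SQLE, enzymes of sterol synthesis, rose by 1.68 ± 0.24 and 1.67 ± 0.18 on the log2 scale, and fatty acid synthase FASN by 1.22 ± 0.15. The gene that fell, PMVK (-1.52), was named after its value was seen. Among nuclear-encoded respiratory chain genes 14 of 28 rose and 3 fell, and among the 13 mitochondrially encoded messages 3 rose and 3 fell. MT-CO2 and MT-CO3 fell (-0.97 ± 0.16 and -0.72 ± 0.18) within the lower mitochondrial share given above. MT-ND6 and MT-ND4L rose (1.52 ± 0.36 and 0.72 ± 0.19). The metal-binding MT2A averaged 4053 ± 531 CPM in invasive cells and 273 ± 20.1 CPM in serum-free cells, and its reads may be shared with other metallothioneins.

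Most lysosomal genes fell, 17 of 23 with 1 higher, NPC1, named after its value was seen. CTSD, the protease cathepsin D, had 104, 93.9, 93.5 and 97.6 CPM in invasive libraries and 656, 703, 676 and 679.8 CPM in serum-free libraries (-2.80 ± 0.13, adjusted p = 2.85e-15). GAA, the lysosomal glucosidase, averaged 8.47 ± 1.64 CPM in invasive cells and 86.3 ± 6.69 CPM in serum-free cells. Genes of MHC class I presentation fell in 12 of 14 cases and rose in 0. For this list, the secretory, replication, G2/M, ribosome biogenesis and fatty acid lists, the direction with 0 calls by edgeR also held 0 members at an unadjusted p under 0.05 and 0 by DESeq2. Over the main fit and all alternatives the fatty acid list had 6 to 9 members higher and 0 to 1 lower, and the other lists kept 0. B2M, the light chain of MHC class I, had 465, 440.3, 578 and 535 CPM in invasive libraries and 1917, 2024, 1973 and 1829 CPM in serum-free libraries, and HLA-E fell (-1.61 ± 0.15). Reads of HLA genes can be split between relatives. The iron-storage genes FTH1 and FTL, which have many processed copies, fell (-1.23 ± 0.21 and -1.14 ± 0.16).

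Cytokine genes were more often higher than lower, and other signalling lists were mixed. Of 19 NF-kB cytokine and chemokine genes 10 rose and 3 fell. PTGS2, the inducible cyclooxygenase, had 100.3, 401, 620.3 and 489.9 CPM in invasive libraries and 6.13, 8.92, 5.67 and 7.06 CPM in serum-free libraries. CXCL8, the neutrophil-attracting chemokine, averaged 35.1 ± 3.26 CPM in invasive cells and 9.64 ± 2 CPM in serum-free cells. YAP/TEAD targets split 11 higher and 9 lower of 22. Its member F3, tissue factor, had 547, 598, 828 and 710.4 CPM in invasive libraries and 56, 44.1, 54.8 and 41.3 CPM in serum-free libraries, whereas CCN2, a matricellular protein, had 25.9, 42.4, 51 and 45.9 CPM in invasive libraries and 300.3, 271, 306 and 237 CPM in serum-free libraries. Eph receptors and ephrins were lower in 7 of 13 and higher in 3, with EPHB3 at 2.98 ± 3.07 CPM in invasive cells and 33.3 ± 4.1 CPM in serum-free cells. Of 17 ATF4 and amino acid supply genes 7 rose and 2 fell, with TRIB3 higher by 1.81 ± 0.24 on the log2 scale.

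**Figure D4:**
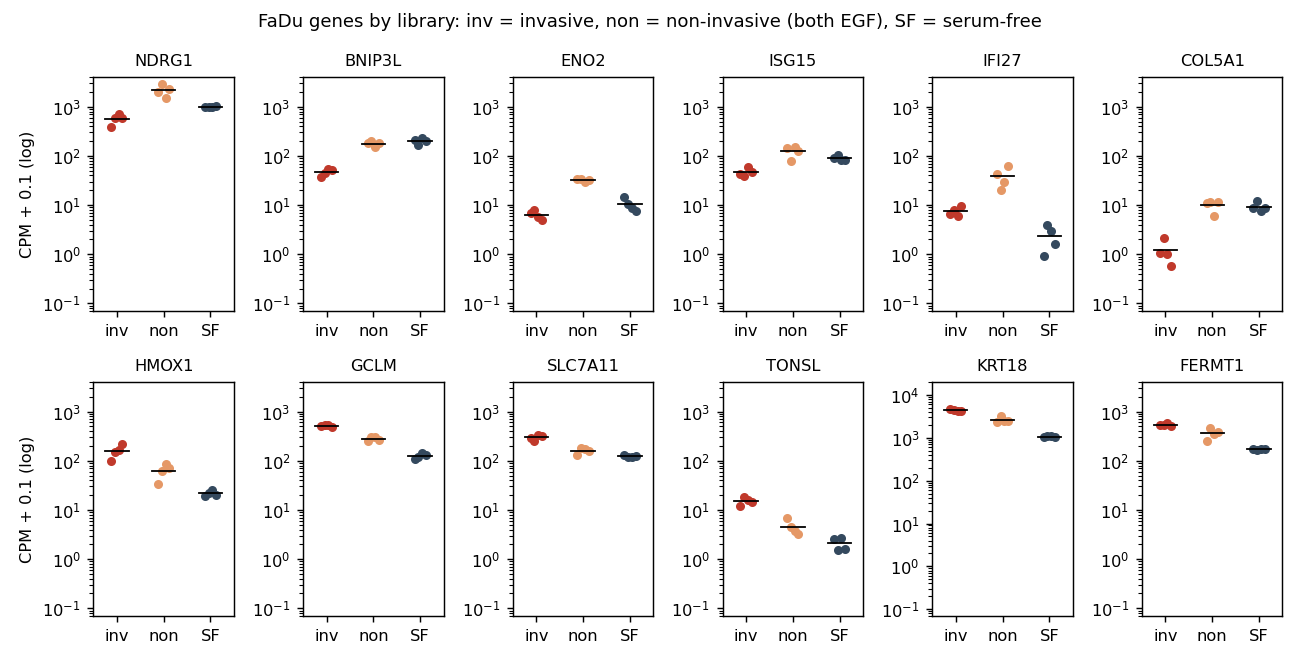
CPM plus 0.1 of 12 genes on a log axis, 1 point per library, in invasive (inv) and non-invasive (non) cells of EGF-treated FaDu spheroids and in serum-free (SF) spheroids, with a bar at each group mean. NDRG1, BNIP3L, ENO2, ISG15, IFI27 and COL5A1 were lower in invasive than in non-invasive cells, and HMOX1, GCLM, SLC7A11, TONSL, KRT18 and FERMT1 were higher.

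Position was examined by setting the invasive cells against the non-invasive cells of the same treatment. The direct test called 80 genes higher (0.659%) and 284 lower (2.34%). Non-invasive cells against serum-free spheroids had 3071 genes higher (25.3%) and 2997 lower (24.7%), and the comparisons share libraries, so their values are given side by side only. These counts moved with the fit, to 1 higher and 83 lower in a fit over all 40 libraries and to 186 higher and 439 lower by DESeq2. ERK output genes were higher in 17 of 22 cases in each EGF group against serum-free cells, and between positions 0 were called by edgeR, 0 by DESeq2 and 0 at an unadjusted p under 0.05. Among the 30 replication genes 0 were called between positions by edgeR and by DESeq2, and 5 were higher at an unadjusted p under 0.05.

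A part of the hypoxia and glycolysis genes was lower at the invasive position. Of 20 hypoxia response genes 2 were higher and 12 lower in invasive cells against serum-free, 7 higher and 4 lower in non-invasive cells against serum-free, and 0 higher and 8 lower in the direct test. NDRG1, induced in low oxygen, had 386, 598, 727 and 587 CPM in invasive libraries, 1949, 2917, 1523 and 2304 CPM in non-invasive libraries and 979.6, 998, 983 and 1015 CPM in serum-free libraries. All invasive libraries were thus below all serum-free libraries, and all non-invasive libraries above them (log2 fold change, invasive over non-invasive, -1.92 ± 0.29, adjusted p = 0.000982). Against serum-free libraries its fall (-0.79 ± 0.28, adjusted p = 0.0238) was lost without invasive replicate 1 (-0.64, adjusted p = 0.0739). BNIP3L, a mitophagy receptor, averaged 47.2 ± 8.1 CPM in invasive, 178 ± 22.1 CPM in non-invasive and 202 ± 24.9 CPM in serum-free cells (-1.91 ± 0.23, adjusted p = 2.84e-05, between positions). EGLN3, an oxygen-sensing hydroxylase, averaged 2.86 ± 1.97 CPM in invasive, 19.6 ± 6.05 CPM in non-invasive and 67.6 ± 9.66 CPM in serum-free cells. Among 22 glycolysis genes 9 rose and 5 fell in invasive cells against serum-free, 16 rose and 0 fell in non-invasive cells against serum-free, and 0 were higher and 9 lower in the direct test. ENO2, a glycolytic enolase, averaged 6.18 ± 1.31 CPM in invasive, 32.5 ± 1.83 CPM in non-invasive and 10.3 ± 3.25 CPM in serum-free cells (-2.40 ± 0.26, adjusted p = 5.85e-06, between positions). The glucose transporter SLC2A1 fell in invasive cells against serum-free (-1.25 ± 0.21) and between positions (-0.77 ± 0.21, adjusted p = 0.0431), where the call was lost without any 1 of 7 of the 8 libraries. Leaving out 1 of the 8 libraries at a time gave 6 to 9 hypoxia and 5 to 8 glycolysis genes lower at the invasive position. Over the main fit and all alternatives the counts were 6 to 11 for hypoxia and 3 to 9 for glycolysis.

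Many interferon response genes were also lower in invasive cells. Of 25 tested, 2 rose and 18 fell in invasive cells against serum-free, 5 rose and 4 fell in non-invasive cells against serum-free, and 0 were higher and 10 lower between positions. ISG15, a ubiquitin-like interferon product, had 42.6, 38.7, 60.2 and 46.6 CPM in invasive libraries, 147, 78.7, 151 and 124 CPM in non-invasive libraries and 88.6, 103, 82.8 and 81.2 CPM in serum-free libraries (-1.41 ± 0.24, adjusted p = 0.00161, between positions). IFI27 averaged 7.33 ± 1.55 CPM in invasive, 38.5 ± 18.8 CPM in non-invasive and 2.23 ± 1.32 CPM in serum-free cells, and was thus higher in invasive than in serum-free cells (1.63 ± 0.63, adjusted p = 0.0348), a call lost without invasive replicate 2 (1.61, adjusted p = 0.06) or 4 and without serum-free replicate 1, 3 or 4. Between positions the count of interferon genes was 5 or 6 without invasive replicate 1, 2 or 4 or non-invasive replicate 1, 3 or 4, and 1 in the fit over all 40 libraries. IRF1, an interferon regulatory factor, fell to 27 ± 12 CPM in invasive cells, against 136 ± 17.1 CPM in serum-free cells.

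Some genes of the NRF2 oxidative stress response were higher at the invasive position. Of 26 tested, 9 rose and 9 fell in invasive cells against serum-free, 4 rose and 11 fell in non-invasive cells against serum-free, and 7 were higher and 0 lower between positions. Against serum-free the list was thus mixed, from -2.88 to 2.88 (median log2 fold change 0.14), and the members described next rose. The iron-storage genes FTH1 and FTL, which fell against serum-free as given above, were not called between positions (-0.18 ± 0.21 and -0.12 ± 0.16). HMOX1, haem oxygenase, had 99.1, 154, 167 and 217 CPM in invasive libraries, 34.3, 62, 84.5 and 71.1 CPM in non-invasive libraries and 19.2, 21.6, 25 and 20.4 CPM in serum-free libraries (1.34 ± 0.26, adjusted p = 0.0038, between positions). GCLM, a subunit of the enzyme that starts glutathione synthesis, averaged 510.1 ± 21.6 CPM in invasive, 283 ± 26.9 CPM in non-invasive and 124 ± 14 CPM in serum-free cells (0.85 ± 0.17, adjusted p = 0.00462, between positions). The cystine transporter SLC7A11 averaged 300.1 ± 36 CPM in invasive, 161 ± 21.2 CPM in non-invasive and 123 ± 6.25 CPM in serum-free cells (0.90 ± 0.12, adjusted p = 6.02e-05, between positions). All 4 invasive values of HMOX1, GCLM and SLC7A11 were above all 4 non-invasive values. The count of 7 was 4 without non-invasive replicate 2 and 1 in the fit over all 40 libraries.

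Further genes told the positions apart by the direct test. TONSL, a replication repair protein, averaged 15.2 ± 2.8 CPM in invasive, 4.46 ± 1.6 CPM in non-invasive and 1.98 ± 0.605 CPM in serum-free cells (1.75 ± 0.36, adjusted p = 0.00462). PLCB4, a phospholipase, RGS2, a brake on G protein signals, KIF18A, a mitotic kinesin, and SERPINE2 were higher in invasive than in non-invasive cells, with log2 fold changes of 1.03 ± 0.26, 1.01 ± 0.24, 0.97 ± 0.25 and 0.95 ± 0.24. FERMT1, the integrin activator kindlin-1, and KRT18 were higher by less (0.57 ± 0.13 and 0.74 ± 0.16). CDH2 was higher by 1.33 ± 0.38 (adjusted p = 0.0496) and ABCC2, a drug efflux pump, by 1.40 ± 0.32 (adjusted p = 0.0115). On the lower side COL5A1 averaged 1.09 ± 0.655 CPM in invasive, 10.0 ± 2.67 CPM in non-invasive and 9.25 ± 2.01 CPM in serum-free cells (-3.22 ± 0.44, adjusted p = 6.68e-05). BBC3, the cell death protein PUMA, averaged 7.73 ± 1.81 CPM in invasive, 40.7 ± 5.92 CPM in non-invasive and 34.6 ± 6.39 CPM in serum-free cells (-2.40 ± 0.55, adjusted p = 0.0229). CYP1A1, a dioxin-inducible enzyme, averaged 2.25 ± 1.88 CPM in invasive, 11.4 ± 1.96 CPM in non-invasive and 793 ± 51.3 CPM in serum-free cells and was far below the serum-free level at both positions. CLDN1 and SCNN1A were lower at the invasive position (-2.77 ± 0.55 and -2.45 ± 0.35). When 1 of the 8 libraries was left out at a time, the calls of CDH2, KIF18A, SERPINE2 and BBC3 were lost in 6 of 8 fits, those of PLCB4 and RGS2 in 4, that of ABCC2 in 2 and that of FERMT1 in 1. Over all 19 alternatives, which include these 8, TONSL, KRT18, CLDN1, CYP1A1, HMOX1, GCLM, EGLN3 and ISG15 each lost the call in 1. FERMT1 and IFI27 lost it in 2, ABCC2 in 3, PLCB4 and RGS2 in 5 and CDH2 in 11. COL5A1, SCNN1A and SLC7A11 kept it in all. In the fit over all 40 libraries only 1 gene was called higher.

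The same comparison in Kyse30, an oesophageal squamous carcinoma line with 4 libraries per group and the same EGF dose and time, was set against that in FaDu for 15 genes. A fit over all 40 libraries tested the difference of the log2 fold changes, FaDu minus Kyse30, in which 1039 of 12652 genes (8.21%) had a higher value in FaDu and 1276 (10.1%) a lower one. Of the 15 genes 12 differed. DUSP6 and PHLDA1 rose more in FaDu, by 3.96 for DUSP6 (adjusted p = 6.77e-07) and 2.77 for PHLDA1 (adjusted p = 2e-07). ETV4 rose in FaDu (5.50) and fell in Kyse30 (-1.57), and HMOX1 likewise (2.88 and -1.59). NDRG1 fell in FaDu (-0.79) and rose in Kyse30 (2.75). Each of these was called in Kyse30 as well, and NDRG1 was higher in its invasive cells at 608 CPM, against 90.9 CPM in its serum-free cells. HMOX1 was low in Kyse30, at 1.80 ± 2.15 CPM in invasive and 6.48 ± 5.86 CPM in serum-free cells (SD). Its Kyse30 call had an adjusted p of 0.0238. VIM averaged 52.3 ± 26.6 CPM in Kyse30 invasive cells and 0.367 ± 0.734 CPM in Kyse30 serum-free cells, and was at 0 in FaDu invasive cells. In FaDu serum-free cells VIM averaged 1.99 ± 3.98 CPM with all its counts in 1 of the 4 libraries, so its FaDu direction rests on that library. MMP1 and IL1RL1 rose and KRT4 fell in both lines, with FaDu minus Kyse30 differences of 4.21 ± 1.91 for MMP1, -2.36 ± 2.01 for IL1RL1 and -2.15 ± 1.46 for KRT4 (SE) that did not pass the test, which does not show that they moved alike. The first Kyse30 invasive library held only 463124 counts. Without it the difference between lines kept its direction and its side of the threshold for each of the 15 genes. The calls within Kyse30 were not tested without it.

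**Figure D5:**
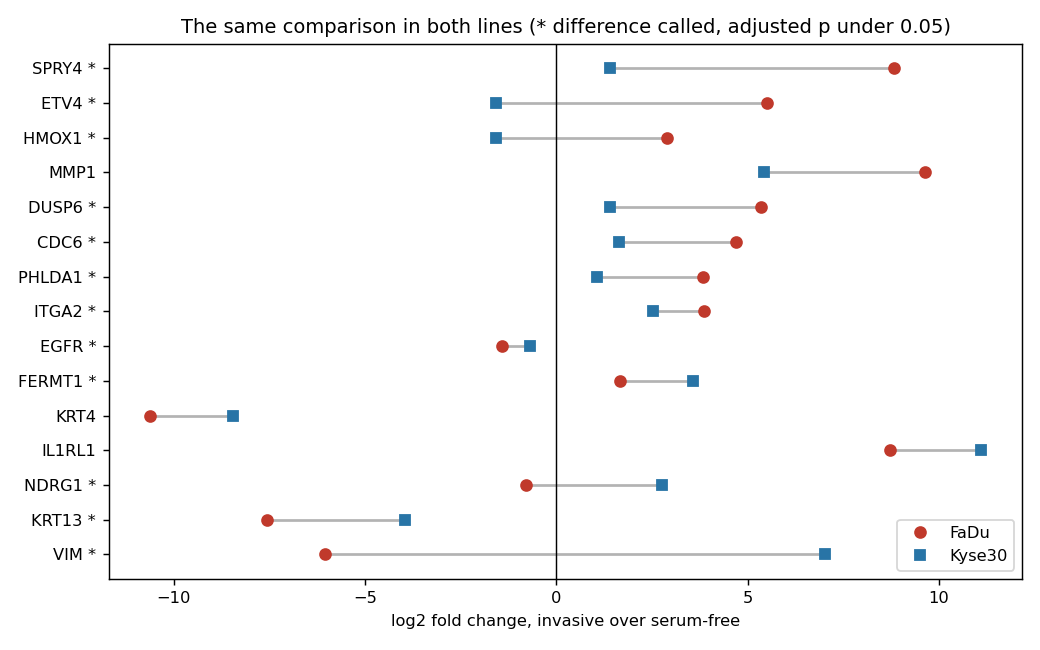
Log2 fold change, invasive over serum-free, of 15 genes in FaDu (circles) and Kyse30 (squares), ordered by the difference between the lines, with an asterisk where that difference was called. ETV4, HMOX1 and NDRG1 lie on opposite sides of 0 in the lines. So does VIM, whose FaDu value rests on 1 serum-free library, and the fitted values of SPRY4 and VIM rest on a group at 0 in FaDu and are not bounds.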

How the data were processed

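RNA of sorted FaDu and Kyse30 spheroid cells was measured by 3′ RNA sequencing, in 4 libraries per group. The deposited values are whole-number counts per gene and library. The submitters' processing notes name STAR, HTSeq and GRCh38/hg38, without versions or a strand setting, so overlapping and antisense genes cannot be told apart. No molecular identifiers are named, so counts are not independent molecules and floors cover counting error only. Group membership came from the sample titles. The 20 FaDu libraries, which include EGF with cetuximab (10 µg/mL) and with the MEK inhibitor AZD6244 (100 nM), were fitted together with edgeR 4.0.16 (R 4.3.3; filterByExpr, TMM, robust quasi-likelihood F test). P-values were adjusted by Benjamini-Hochberg over 12131 genes, with a threshold of 0.05, and SE is the log2 fold change over the root of F. The difference between lines was fitted over 40 libraries. A gene at 0 in a group was set to a floor of 3 counts over that group for its fold bound. Named genes were those of a panel, the 4 called members of each list with the smallest p, and, in each direction, the 15 largest changes at 10 CPM or more without overlap, the 6 largest CPM differences and the 8 largest differences from non-invasive cells. Some genes are not reported here. Members and lists were chosen with earlier results of these data known. Alternatives included limma-voom (limma 3.58.1), DESeq2 1.42.0, other scalings and filters, and leaving out libraries. Scripts were tested on simulated data. Invasive replicates differed by more than sampling noise, with a chi-square over degrees of freedom of 8.56 to 15.3, as did serum-free replicates, with 2.39 to 3.87. Motifs were searched in RefSeq promoters (GRCh38.p14).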

Additional observations from a re-analysis of the deposited data

Results flagged for a closer look

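In 31 of 533 sets of 4 libraries, formed by each named gene or library measure within a group, 1 library lay far from the other 3, by Dixon's test at its 95% critical value. Chance gives about 1 in 20 such sets, so the number of these values is not itself a result. In invasive libraries KRT6A stood at 26.8 CPM in replicate 4 and TIMP3 at 3.97 CPM in replicate 3, above the other replicates. ITGA6 was low in invasive replicate 2, at 318 CPM, while ATP6V1B1 in replicate 4 and CP in replicate 1 each had 0.239 CPM where the others had 0.

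In serum-free libraries the values above the other replicates were 163 CPM for CDH3, 5.72 CPM for LAMA3 and 9.80 CPM for OVOL1 in replicate 1, 40.8 CPM for CDKN1C in replicate 2, and 96.2 CPM for GAA and 1.42 CPM for FN1 in replicate 3. The values below them were 58.9 CPM for CDKN1B, 19.9 CPM for EGR2 and 13.4 CPM for HBEGF in replicate 2, and 94.2 CPM for FOSL2 and 45.7 CPM for SCNN1A in replicate 3. Single libraries held the only counts of KRT6A and MMP1 (0.504 CPM each, replicate 4), of SERPINB2 (0.252 CPM, replicate 4) and of TRPV3 (0.235 CPM, replicate 2).

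In non-invasive libraries replicate 1 was high for HSPB1 (443 CPM), TNNT3 (6.95 CPM), CLIC3 (1.79 CPM) and CDH5 (0.224 CPM) and low for DUSP5 (147 CPM) and MMP10 (11.4 CPM). Replicate 2 was high for ITGAV (33.8 CPM) and low for DST (616 CPM) and CTSD (106 CPM). COL5A1 was low in replicate 3, at 6.02 CPM, and INHBB was at 0 in replicate 4.

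The change of 12 of 15 genes, invasive over serum-free, differed between FaDu and Kyse30 by a test of the difference itself, given here as FaDu minus Kyse30 on the log2 scale. It was above 0 for SPRY4 (7.43), ETV4 (7.08), HMOX1 (4.47), DUSP6 (3.96), CDC6 (3.06), PHLDA1 (2.77) and ITGA2 (1.33). For VIM (-13.07), KRT13 (-3.63), NDRG1 (-3.54), FERMT1 (-1.91) and EGFR (-0.74) it was below 0. The values of SPRY4 and VIM rest on a FaDu group at 0 and depend on the prior count of the fit, and the FaDu counts of VIM came from 1 serum-free library.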

How the results depend on the processing

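Against serum-free cells the count of called genes lay between 5597, in a fit over all 40 libraries, and 7186, without the 2 FaDu libraries with the fewest detected genes, an alternative chosen after seeing the data, and between 6431 and 6839 when 1 library was left out. A stricter filter on low counts called 3050 genes higher and 2833 lower of 9634. Of 213 genes with a log2 fold change against serum-free cells, 204 kept direction and side of the threshold in all of the 19 alternatives that tested them. Some were not tested in every alternative, such as CDH5, tested in 16, and EPHB6, tested in 17. The call was lost in at least 1 alternative for 8 genes (ABCC2, CDH2, ENO2, FN1, IFI27, ISG15, NDRG1 and RPS29). PLAU, not called, lay between -0.011 and 1.52 when 1 library was left out, with the low end without invasive replicate 3, and the cause was not tested. Invasive against non-invasive cells depended more on the fit. It had 178 genes higher with only those groups in the fit, 84 called with 1 higher and 83 lower in the fit over all 40 libraries, and 625 called with 186 higher and 439 lower by DESeq2, and the cause was not tested. Leaving out 1 library at a time gave 209 to 331 called, 28 to 87 higher and 181 to 256 lower. Interferon genes lower against serum-free cells numbered 11 to 18, with 18 members tested at the low end. Equal replicate numbers share only a number, with correlations of deviations from -0.03 to 0.11 between invasive and serum-free cells and from -0.07 to 0.18 between invasive and non-invasive cells, and a replicate block gave 6889 called genes against serum-free cells and 351 between positions. The largest shift of the median log2 fold change from another scaling was to -0.07, from -0.04. In a simulation with 100 genes changed 2-fold, 100 changed 4-fold and the rest of 12049 unchanged, 55% and 85% of them were recovered. The data held far more called genes than the 147 of the simulation, so the adjusted threshold differed. These shares are therefore not recovery rates for this comparison.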
